A study of Mus musculus with 54 samples.

Results

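A set of 10 genes that move phosphate across the proximal tubule, or that set it through parathyroid hormone, FGF23 and vitamin D, were followed in RNA from mouse early proximal tubules. They were picked by name from the rows of the expression table: Slc34a1, Slc34a3, Slc20a1, Slc20a2, Xpr1, Kl, Pth1r, Cyp27b1, Cyp24a1 and Vdr. These are 10 of 55487 rows, and all 10 were among the 12742 genes that passed the filter on low values (TPM 1 or more in 5 or more libraries). TPM is an abundance per transcript length, so that it can be compared between genes. It is scaled so that every library has the same sum, and a value thus depends on the rest of its library. The number of reads behind a value is unknown.

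The tubules stained for SGLT2 and were cut from kidney sections with a laser, 70 to 80 tubules to a sample. All mice were male, of the DBA strain and 14 weeks old. Non-diabetic mice (Ins2+/+) were set against littermates with the Akita allele of the insulin gene (Ins2 Akita/+), whose beta cells fail and who lack insulin. In both, Sglt1, the gene Slc5a1, was either wild type or absent (Sglt1-/-). Treatments lasted 2 weeks. Vehicle groups of non-diabetic mice hold 5 libraries of each genotype, and those of Akita mice 6 of each. Dapagliflozin, which blocks SGLT2, was mixed into the diet at 10 mg/kg. Its groups hold 4 wild-type and 6 knockout libraries without diabetes, and 5 and 6 with it. Semaglutide, which acts on the GLP-1 receptor, was injected under the skin of Akita mice with intact Sglt1 (3 nmol/kg/day, 5 libraries). The labels do not tie libraries to animals, so p-values measure only the spread between these libraries, which may be partly technical.

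Phosphate is filtered at the glomerulus and taken back mostly in the proximal tubule, through sodium-coupled cotransporters in the brush border. Parathyroid hormone, acting on Pth1r, and FGF23, acting on FGF receptors with the co-receptor Klotho (Kl), make the cell withdraw these cotransporters and so raise phosphate in the urine. The same cells hold both ends of active vitamin D control: Cyp27b1 makes calcitriol, Cyp24a1 breaks it down, and Vdr is the nuclear receptor that calcitriol binds.

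The labels were checked in the libraries first. Slc5a1 read 0.814 to 4.29 TPM in the 25 wild-type libraries and 0 to 0.123 in the 23 knockout libraries. Slc5a2, which encodes SGLT2, read 82.5 to 275 TPM in all 48. Distal tubule RNA was present in varying amounts: the thiazide-sensitive cotransporter Slc12a3 ranged from 1.32 to 229 TPM and Umod, of the thick ascending limb, from 3.29 to 41.7, while Trpv5 stayed at or below 0.796 and Cldn16 at or below 0.481. Nuclear protein-coding genes other than Lars2 held 5.98% to 14.1% of a library's TPM. The lowest group means were in Akita wild-type vehicle (8.59% ± 2.02, SD, n = 6) and Akita knockout vehicle (8.78% ± 2.65, SD, n = 6). Below, the term nuclear protein-coding likewise excludes Lars2, in shares, rescaled values and ranks by mean TPM. All 4 libraries with fewer than 9000 genes at a TPM of 1 or more were Akita vehicle libraries, 2 of each genotype.

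Slc34a1, which encodes NaPi-IIa, the main brush-border phosphate cotransporter, was the third most abundant of 10388 nuclear protein-coding genes by mean TPM. The gene (ENSMUSG00000021490) lies on the plus strand of chromosome 13, at 55398187 to 55415592 in GRCm38. Slc34a3 encodes NaPi-IIc, the second cotransporter of the same membrane and family, and ranked 3389. It (ENSMUSG00000006469) lies on the minus strand of chromosome 2, at 25228898 to 25234364. The stretches before their RefSeq starts (GRCm38.p6) are shown because the ratio of these 2 genes, examined after the values were seen, is described below. The first is the 250 bases before the Slc34a1 start, chr13:55399398-55399647 on the plus strand. The second is chr2:25234365-25234475 on the minus strand, the 111 bases of the Slc34a3 window that lie outside annotated exons.
Slc34a1: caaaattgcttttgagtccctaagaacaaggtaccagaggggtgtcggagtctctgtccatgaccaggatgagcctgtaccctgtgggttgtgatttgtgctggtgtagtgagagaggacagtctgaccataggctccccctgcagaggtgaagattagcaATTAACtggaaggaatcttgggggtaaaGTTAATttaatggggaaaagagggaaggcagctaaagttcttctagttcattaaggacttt
Slc34a3: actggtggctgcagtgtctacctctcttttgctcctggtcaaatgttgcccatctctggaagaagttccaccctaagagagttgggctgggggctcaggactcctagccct
Capitals mark GTTAAT, a half-site of the tubule factor HNF1, read on either strand. It occurred at 2 places in the Slc34a1 window, 84 to 89 and 56 to 61 bases before the start, once on each strand. Of all 32851 RefSeq windows of 250 bases, 6.43% held it on either strand, and none of the other member windows did. AGGTCA, a half-site that many nuclear receptors bind, was in 14% of all windows and in those of Slc34a3, Xpr1 and Slc20a1. In Slc34a3 its 2 matches lay 28 to 33 and 1 to 6 bases before the RefSeq start, within the exon that is not shown. TATAAA was in 12.4% of all windows and in none of the 11 windows found for 8 members. Both strands were searched for each motif. These are matches of letters and show no binding. The Slc34a1 window overlaps no annotated exon and lies within the annotated span of the gene. The bases just after its RefSeq start were not found in an annotated transcript of the gene, unlike those of Slc34a3. The Slc34a1 start and the distances from it thus rest on RefSeq alone.

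Slc34a1 varied little between groups. In cut tissue, fewer cells of a type and less RNA per cell cannot be told apart, here or below. The TPM values of non-diabetic wild-type vehicle libraries were 539, 976, 633, 617 and 490.4, and those of knockout vehicle libraries 595, 757, 700.0, 865 and 618. Akita vehicle libraries ran from 464 to 802 TPM in wild type (median 619.6, n = 6) and from 395 to 940 in knockouts (median 569.5, n = 6). The group means of its TPM lay between 612 ± 230 (SD, n = 6, Akita knockout vehicle) and 711 ± 217 (SD, n = 6, Akita knockout dapagliflozin), 1.16-fold apart. All groups overlapped.

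Slc34a3 was far less abundant and varied more. Its TPM in non-diabetic libraries was 9.32, 11.9, 4.69, 7.87 and 2.94 in wild type with vehicle. Knockout vehicle libraries gave 3.25, 5.58, 4.82, 8.19 and 5.68 TPM. With dapagliflozin, wild-type libraries gave 3.48, 8.21, 2.39 and 2.32 TPM, and knockouts 2.84 to 8.40 (median 5.61, n = 6). In these mice 3 of the 4 wild-type dapagliflozin libraries were below all but 2 vehicle libraries of either genotype. Akita wild-type vehicle libraries gave 5.81 to 9.18 TPM (median 7.22, n = 6) and knockout vehicle libraries 5.0 to 12.5 (median 9.70, n = 6), the highest group. With dapagliflozin, Akita wild-type libraries gave 7.54, 6.65, 3.38, 3.68 and 6.85 TPM and knockouts 1.61 to 12.5 (median 4.54, n = 6). Semaglutide libraries gave 11.6, 6.78, 3.50, 5.08 and 10.9 TPM. The Akita knockout dapagliflozin group held both the lowest library of all and 1 of the 2 highest.

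**Figure D1:**
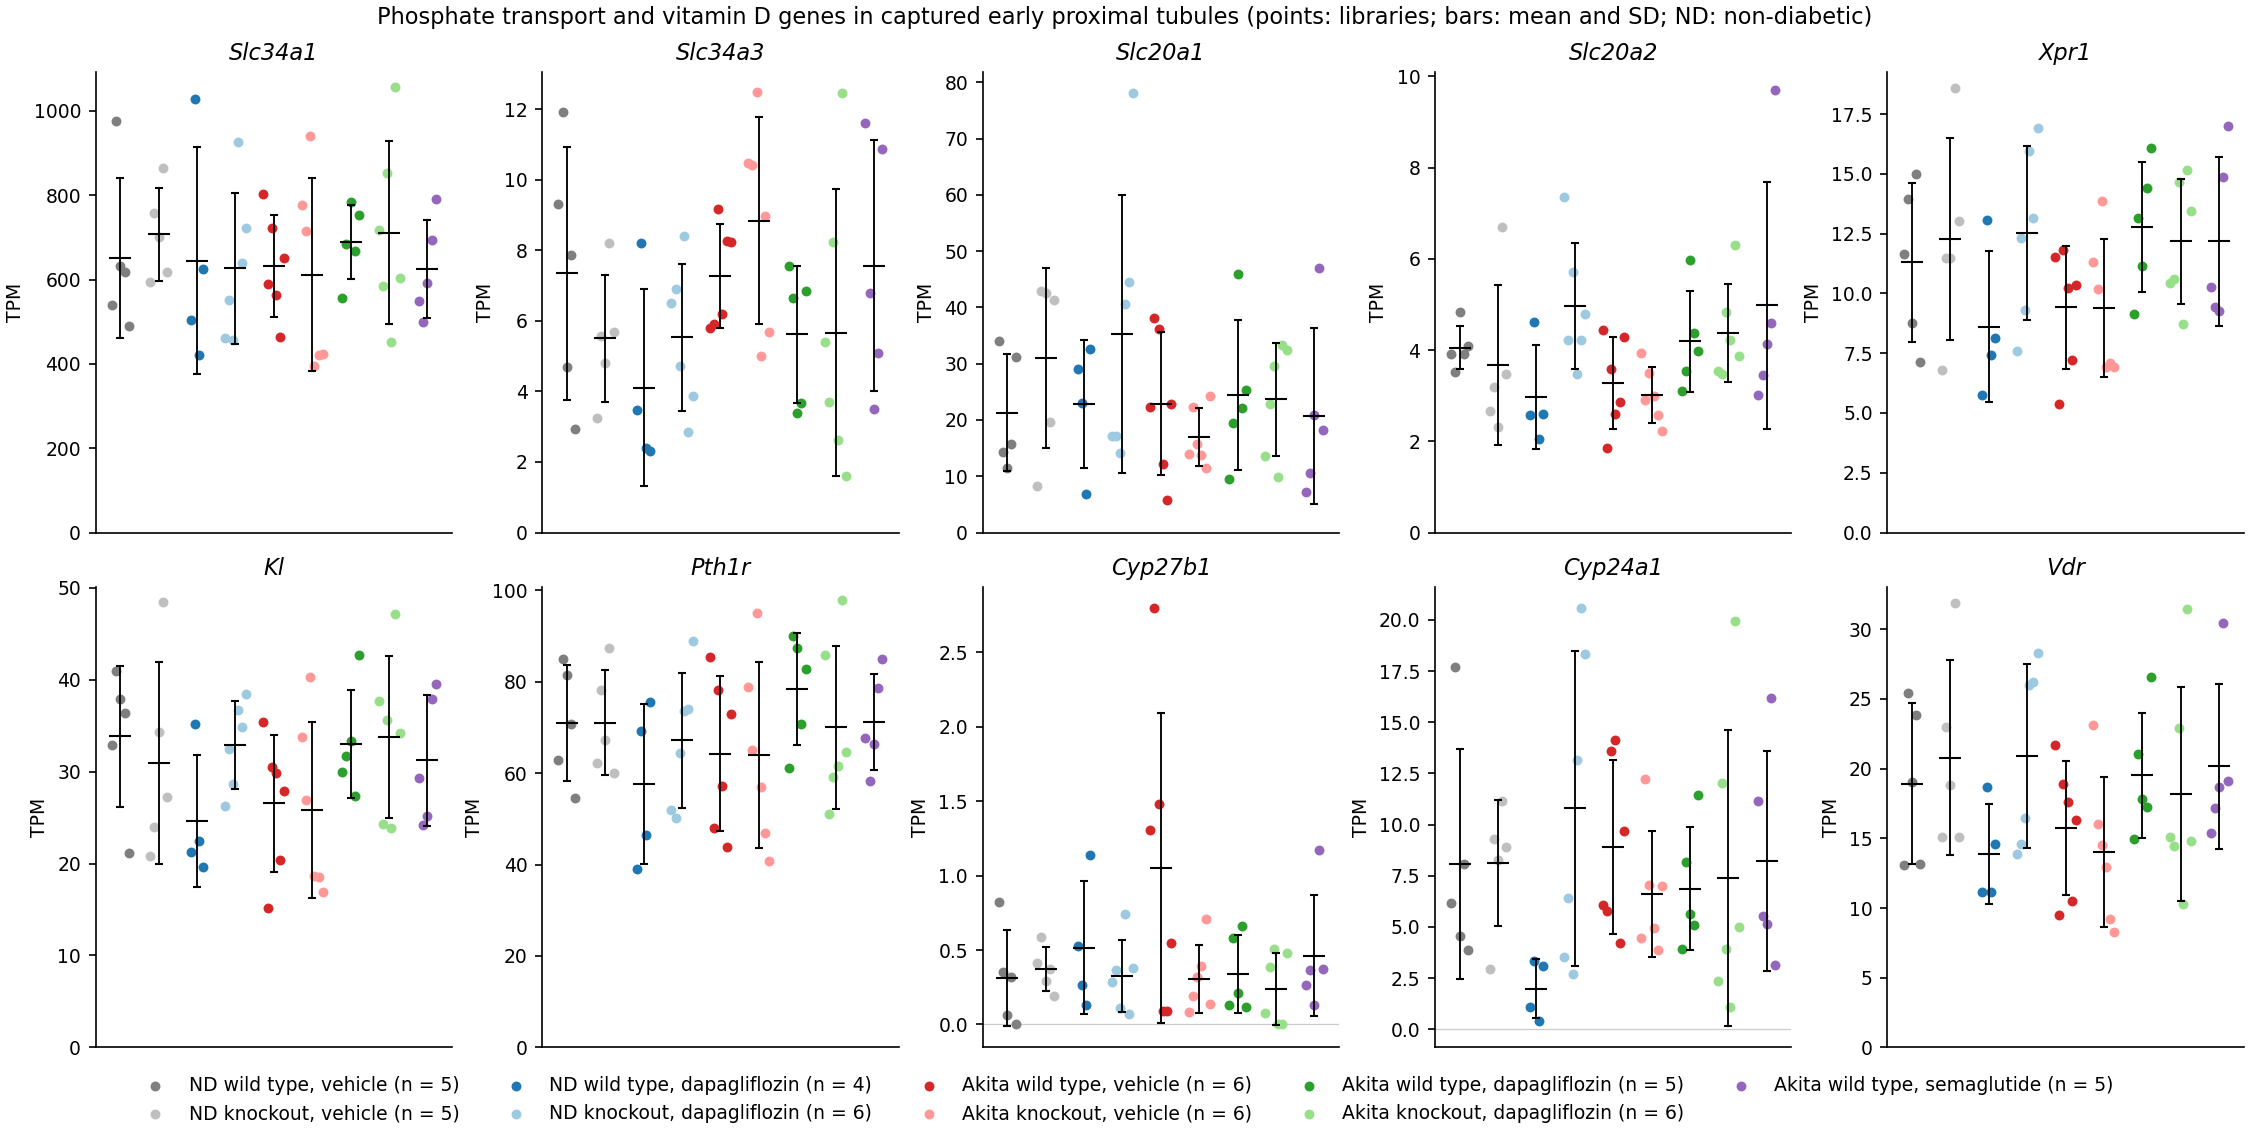
TPM (linear axes from 0) of the 10 genes in 48 libraries, by group. Points are libraries and bars are group means with their SD; non-diabetic (ND) groups stand on the left of each panel and Akita groups on the right. The groups overlap in nearly every panel; in the Cyp24a1 panel the 4 non-diabetic wild-type dapagliflozin libraries (0.411 to 3.34 TPM) lie below the 5 vehicle libraries (3.88 to 17.7).

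The widely expressed cotransporters Slc20a1 (PiT-1) and Slc20a2 (PiT-2), which use sodium and phosphate in nearly all cells, were present at lower TPM than Slc34a1. Slc20a1 (chromosome 2, 129198764 to 129211616, plus strand) had the widest range of the cotransporters relative to its level, from 5.75 to 78.1 TPM (median 22.2, n = 48). Its libraries spread within every group, from 14.2 to 78.1 TPM in non-diabetic knockouts on dapagliflozin and from 5.75 to 38.1 in Akita wild type on vehicle. Slc20a2 (chromosome 8, 22476788 to 22569612) ran from 1.85 to 9.70 TPM (median 3.73, n = 48). Of the summed TPM of the 4 cotransporters, Slc34a1 made up a median of 95.2% (89.3% to 97.7% over 48 libraries), Slc20a1 3.09%, Slc34a3 0.915% and Slc20a2 0.554%.

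Xpr1, the phosphate exporter, ranked 1991 and ran from 5.37 to 18.6 TPM (median 11.2, n = 48; chromosome 1, 155275701 to 155417415). Its group means went from 8.60 ± 3.15 TPM (SD, n = 4) in non-diabetic wild type on dapagliflozin to 12.8 ± 2.72 (SD, n = 5) in Akita wild type on dapagliflozin. Both ends of its order were thus dapagliflozin groups.

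Among the receptors of the phosphate-wasting hormones, Pth1r ranked 145 and ran from 39.1 to 97.8 TPM (median 67.4, n = 48; chromosome 9, 110722085 to 110747145). Kl ranked 534 and ran from 15.1 to 48.4 TPM (median 30.2, n = 48; chromosome 5, 150952607 to 150993817). On the TPM scale the highest group mean was 1.37 times the lowest for Kl and 1.36 times for Pth1r. Kl and Vdr are also known from the distal tubule, whose 8 marker genes summed to 17.7 to 313 TPM over the libraries. That sum ranged from 17.7 to 155 TPM in Akita knockout vehicle libraries and from 57.5 to 313 in Akita wild-type dapagliflozin libraries. Its part in the Kl and Vdr values was not tested.

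Of the vitamin D genes, Vdr ranked 1113 and ran from 8.27 to 31.8 TPM (median 16.8, n = 48; chromosome 15, 97854425 to 97910630). Cyp27b1 was close to the floor of the assay, at rank 10277 and 0 to 2.80 TPM (median 0.335, n = 48; chromosome 10, 127048250 to 127053006), and was listed at 0 in 3 libraries. Its values were highest in Akita wild-type vehicle tubules, at 1.30, 2.80, 1.48, 0.0909, 0.0884 and 0.546 TPM. Of those 6 libraries, 3 stood above every library of the other groups, and another 2 were near the low end. Cyp27b1 reached 1 TPM in 5 libraries, the number the filter asks for, and 3 of these were in this group. It was thus tested only because of this group, so its differences against it are given as descriptions, with no test. Cyp24a1 (chromosome 2, 170482708 to 170497145) ran from 0.411 to 20.6 TPM (median 5.92, n = 48) and was above Cyp27b1 in every library in which both were above 0, with a median ratio of 17.8 over those libraries. Some members share sequence with a protein-coding gene on the other strand: Cyp24a1 with Pfdn4, Pth1r with Myl3, Slc20a2 with Smim19 and Slc34a1 with Pfn3. Other kinds of gene overlap Slc20a1 (9830144P21Rik and Gm4430) and Xpr1 (Gm22569) on the other strand. The kit keeps strand, but whether the counting used it is not given in the sources used here.

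The order of the 9 groups by mean TPM was compared between neighbours for each gene. For 9 of the genes no neighbouring pair differed by more than the larger of the 2 SDs or failed to overlap. For Cyp24a1, 1 of 8 neighbouring pairs did both: Akita knockout vehicle (6.59 ± 3.07, SD, n = 6) stood above the lowest group, non-diabetic wild-type dapagliflozin (1.99 ± 1.45, SD, n = 4). These groups differ in diabetes, genotype and drug at once, and the share of all genes that fail to overlap between them was not counted. That dapagliflozin group also had the lowest mean TPM for Slc34a3, Slc20a2, Xpr1, Kl, Pth1r and Vdr, 7 of the 10 genes in all. The share of all genes with their lowest mean there was not counted, so this shows no trait of the members. Its nuclear protein-coding share was 8.88% ± 2.28 (SD, n = 4), below those of the other non-diabetic groups (10.0% to 10.8%).

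Diabetes was the first question. Across both genotypes on vehicle, no member passed the test (limma, Benjamini-Hochberg adjusted p under 0.05) between Akita and non-diabetic tubules, beside 71 of 12742 genes, or 0.557%. On deposited TPM 2 members were higher and 8 lower, with a median change of -0.20 on the log2(TPM + 1) scale, which understates changes of low genes. The median of all tested genes was -0.20 as well. With each library divided by its nuclear protein-coding sum, here called rescaling, 6 members were higher, with a median of 0.05. The lowest p of the members was that of Vdr, whose log2 value was lower by 0.41 (change -0.41, SE 0.18, adjusted p = 0.228, limma). After rescaling the change of Vdr was -0.14 (adjusted p = 0.751). On deposited TPM the 2 members above 0 were Slc34a3, at 0.34 (SE 0.23, adjusted p = 0.411), and Cyp27b1, at 0.22. The Cyp27b1 value is a description only, and the member counts and medians here and below include that gene. After rescaling Slc34a3 was at 0.60 (SE 0.20, adjusted p = 0.249). For Slc34a1 the change was -0.15, with a 95% interval of -0.48 to 0.18, and 0.14 after rescaling. For Pth1r it was -0.18 (-0.48 to 0.12), and 0.10 after rescaling. Markers of the late proximal tubule moved with this comparison: 3 of 7, a list that also holds Slc5a1, were called lower, and their summed TPM had means of 414 and 488 in the Akita vehicle groups and of 535 to 901 in the others. The part of such tubule segments in the member values was not tested.

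By genotype, no member was called either, in wild type (0.0235% of genes called) or in knockouts (0%; 14.4% of genes had an unadjusted p under 0.05). The log2 difference of Cyp27b1 in wild type was 0.53, with 4 of 6 Akita libraries above the non-diabetic median, and is a description for the reason given above. In knockouts Vdr was at -0.56 (SE 0.26, adjusted p = 0.325), and without the 4 libraries with fewest genes at -0.28. Slc34a3 was at 0.58 (SE 0.33, adjusted p = 0.395) in knockouts and at 0.09 in wild type, and after rescaling at 0.88 and 0.32. The difference of the diabetes effect between genotypes called 0% of genes and no member, and 3.19% of genes had an unadjusted p under 0.05.

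Loss of Sglt1 was the second question. Averaged over the 4 backgrounds with both genotypes, it called no member, beside 3 genes, or 0.0235%, of which Slc5a1 itself was 1. Every member's log2 change lay between -0.18 (Cyp27b1) and 0.32 (Cyp24a1). The average holds the Akita wild-type vehicle group that carried Cyp27b1 through the filter, so the Cyp27b1 value is a description only. The 95% interval for Slc34a1 was -0.23 to 0.25 and for Pth1r -0.20 to 0.22. In non-diabetic mice 0.0235% of genes and no member were called, and in Akita mice 0.0157% and no member. There the difference of Cyp27b1 was -0.52, against the same Akita wild-type vehicle libraries that carried it through the filter.

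Dapagliflozin in Akita mice was the third question. Averaged over genotypes, 104 genes passed, or 0.816%, and no member. Members were split: 7 were higher and 3 lower on deposited TPM, with a median of 0.25, beside 0.17 for all tested genes. Of these genes, 4 had an unadjusted p under 0.05, as did 17.5% of all genes. Xpr1 was at 0.39 (SE 0.16, adjusted p = 0.210), Kl at 0.37 (SE 0.16, adjusted p = 0.214) and Slc20a2 at 0.35 (SE 0.15, adjusted p = 0.224). Slc34a3 went the other way, at -0.54 (SE 0.23, adjusted p = 0.214). Without the 4 libraries with fewest genes, all of them vehicle, Xpr1 was at 0.19, Kl at 0.13 and Slc20a2 at 0.21, and Slc34a3 at -0.60. Late proximal tubule markers moved with this comparison too: all 7 were above 0, with a median of 0.72, and 1 was called higher. Of 8 early proximal tubule markers 1 was called higher as well. Their part in the member values was not tested.

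Slc34a3 was the 1 member that any alternative called. On nuclear protein-coding rescaling, it fell by 0.80 on the log2 scale with dapagliflozin in Akita mice (SE 0.20, adjusted p = 0.0463, limma), where 0.259% of genes were called lower. On that scale Xpr1 was at 0.14, Kl at 0.10 and Slc20a2 at 0.13, and 4 of the 10 members were above 0. The call was at the edge of the threshold. It held in 5 of the 23 fits that left out 1 library of the 4 groups, with adjusted p-values from 0.0258 to 0.114 and changes from -0.88 to -0.69. Without the 4 libraries with fewest genes it was at -0.66 (adjusted p = 0.268). Slc34a1, of the same family, was at -0.10 on the rescaled values and at 0.19 on deposited TPM (95% interval -0.13 to 0.51).

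**Figure D2:**
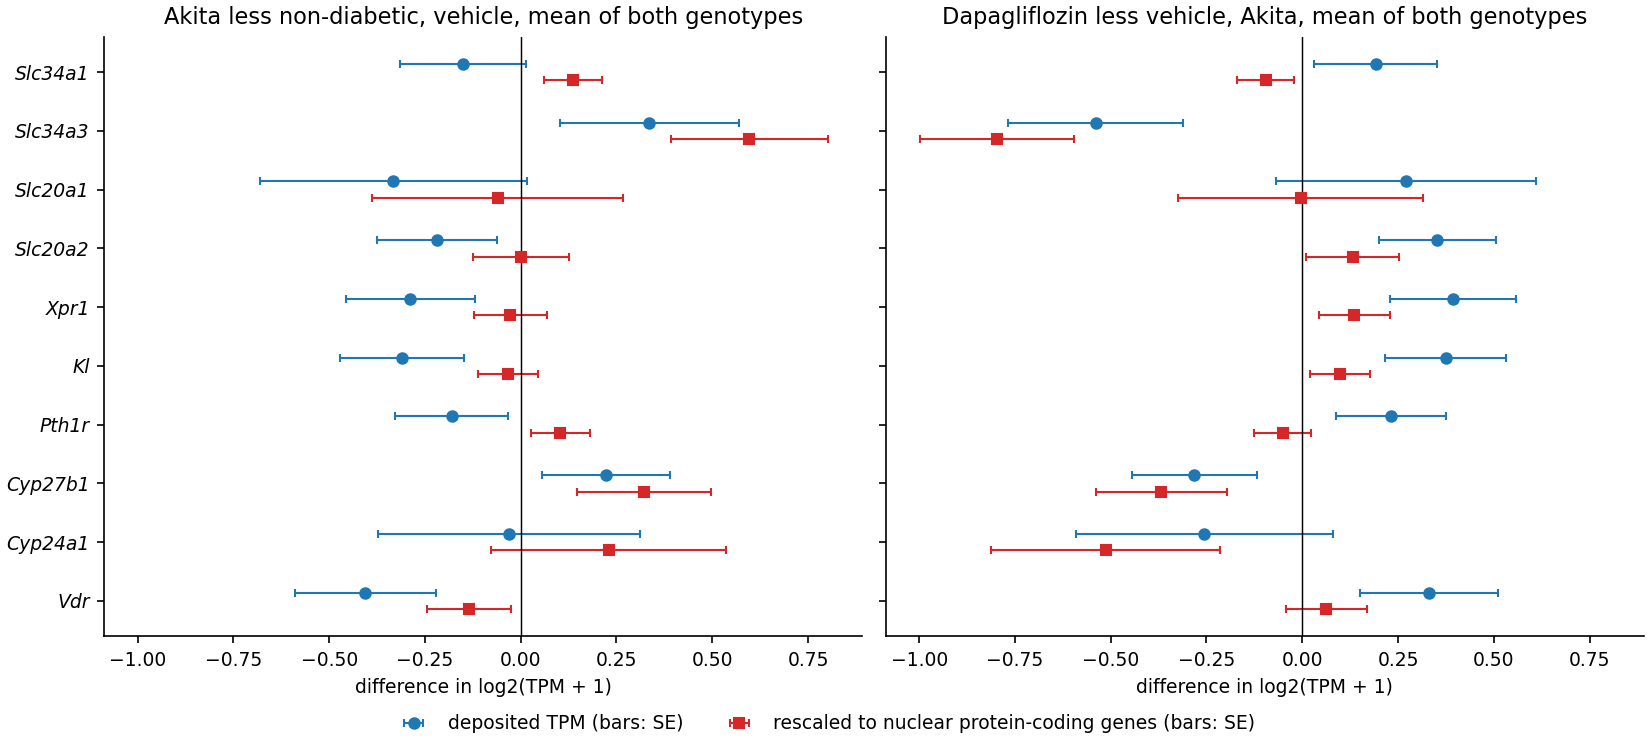
Difference in log2(TPM + 1) of each gene, for Akita less non-diabetic vehicle tubules (left) and dapagliflozin less vehicle in Akita mice (right), each the mean of both genotypes. Circles are deposited TPM and squares TPM rescaled to nuclear protein-coding genes, with SE bars from limma. Rescaling changes the number of genes above 0 from 2 to 6 in the left panel and from 7 to 4 in the right. It moves Slc34a3 away from 0 in both panels, from -0.54 to -0.80 in the right.

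Within genotypes, dapagliflozin in Akita mice called no member in wild type (0% of genes; 10.1% had an unadjusted p under 0.05) or in knockouts (0%; 7.59%). Slc34a3 was at -0.36 (SE 0.33) in wild type, with 4 of 5 treated libraries below the vehicle median, and at -0.72 (SE 0.31, adjusted p = 0.650) in knockouts, with 5 of 6 below. In wild type the difference of Cyp27b1 was -0.48, with all 5 treated libraries below the vehicle median, again against the group that carried it through the filter.

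In non-diabetic mice dapagliflozin called no member in wild type (0% of genes; 4.05% had an unadjusted p under 0.05), in knockouts (0.00785%) or on average (0%; 3.69%). Cyp24a1, which inactivates calcitriol, showed the widest separation of any member. Its TPM was 6.17, 17.7, 4.57, 8.07 and 3.88 in wild-type vehicle libraries and 1.10, 3.34, 0.411 and 3.10 with dapagliflozin. The groups did not overlap, and 0.942% of all genes also lay wholly lower with dapagliflozin in this comparison. The log2 change was -1.57 (SE 0.54, adjusted p = 0.981, limma), and -1.48 on the rescaled values (adjusted p = 0.685). With the number that the labels give each captured sample as a covariate it was -1.21. In knockouts the 6 dapagliflozin libraries ran from 2.68 to 20.6 TPM (median 9.81) and the vehicle libraries were 2.96, 9.30, 8.28, 11.2 and 8.91, a change of 0.15. The difference of the dapagliflozin effect between these genotypes, a comparison chosen after the values were seen, was 1.72 for Cyp24a1 (SE 0.72, adjusted p = 0.998), and it called 0% of genes (3.89% had an unadjusted p under 0.05). Kl, Vdr and Slc34a3 were at -0.45, -0.40 and -0.72 in non-diabetic wild type with dapagliflozin, each with an adjusted p of 0.981. After rescaling they were at -0.26, -0.22 and -0.57.

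Whether dapagliflozin acted differently in diabetic and non-diabetic mice was tested over both genotypes. It called 0% of genes and no member, while 14.7% of genes had an unadjusted p under 0.05. Of the members, 8 were above 0, with a median of 0.40 beside 0.27 for all tested genes. On the rescaled values 6 were above 0 and the median was 0.05. Xpr1 was at 0.56 (SE 0.24), Kl at 0.53 (SE 0.23) and Pth1r at 0.44 (SE 0.21). All 3 had an adjusted p of 0.312 or above by limma, and after rescaling they were at 0.19, 0.14 and 0.05.

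Semaglutide was given to Akita wild-type mice alone. Against vehicle it called 0% of genes (5.82% had an unadjusted p under 0.05) and no member. Slc20a2 was at 0.42 (SE 0.22, adjusted p = 0.851, limma), where 1 library of 9.70 TPM stood above the others (3.02, 3.46, 4.12 and 4.59). For Slc34a1 the change was -0.01 (95% interval -0.48 to 0.45) and for Slc34a3 -0.04 (-0.70 to 0.63). The semaglutide libraries carry capture numbers of 88 to 99 in the labels, above those of all Akita wild-type vehicle libraries (1 to 82). With that number as a covariate Cyp24a1 moved from -0.18 to -0.74 and Slc20a1 from -0.18 to -0.71, and Slc20a2 was at 0.39. Against dapagliflozin, semaglutide called 0% of genes (2.61% had an unadjusted p under 0.05) and no member, and member changes lay between -0.34 (Slc20a1) and 0.32 (Slc34a3).

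The ratio of Slc34a1 to Slc34a3 within a library does not depend on how the library is scaled. It was examined after the values were seen. The median ratio over 48 libraries was 105, with a range of 47.0 to 374. Akita knockout vehicle tubules had ratios of 47.0 to 78.9 (median 74.3, n = 6), non-diabetic knockout vehicle tubules 106 to 183 (median 136, n = 5) and Akita knockout dapagliflozin tubules 84.9 to 374 (median 146, n = 6). The Akita knockout vehicle libraries thus lay wholly below both other knockout groups. How often other pairs of genes separate these groups was not examined. The adjusted p-values below cover the 10 comparisons of this ratio, not the other pairs that could have been picked. The ratio was lower with diabetes in knockouts (log2 difference -0.95, exact permutation p = 0.00433, two-sided, adjusted p = 0.0217 over 10 comparisons). It was higher with dapagliflozin in Akita knockouts (log2 difference 1.14, exact permutation p = 0.00217, the smallest 6 against 6 allows, adjusted p = 0.0217). The same Akita knockout vehicle libraries enter both comparisons. Slc34a1 followed the nuclear protein-coding share of a library (r = 0.91, given below). The ratio is thus close to rescaled Slc34a3 and is not a separate result.

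The other 8 comparisons of the ratio had adjusted p-values of 0.278 or above. In wild type the diabetes difference was -0.15, from ratios of 57.8 to 167 (n = 5) to 56.1 to 138 (n = 6). The dapagliflozin differences in wild type were 0.56 in Akita mice and 0.83 in non-diabetic mice, where ratios of 57.8 to 167 stood against 125 to 269 (n = 4). Semaglutide gave 0.05. The difference between genotypes in these ratios was not tested. Without the 4 libraries with fewest genes, 4 Akita knockout vehicle libraries remained, with ratios of 68.7 to 78.9, still wholly below both other knockout groups, and the differences were -0.84 and 1.03. Their exact permutation p-values of 0.0159 and 0.00952 were the smallest that these numbers allow, and the adjusted p of 0.0794 for each says nothing about stability. Late proximal tubule markers summed to 233 to 797 TPM in Akita knockout vehicle, 701 to 967 in non-diabetic knockout vehicle and 513 to 976 in Akita knockout dapagliflozin libraries. Their part in the ratio was not tested.

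**Figure D3:**
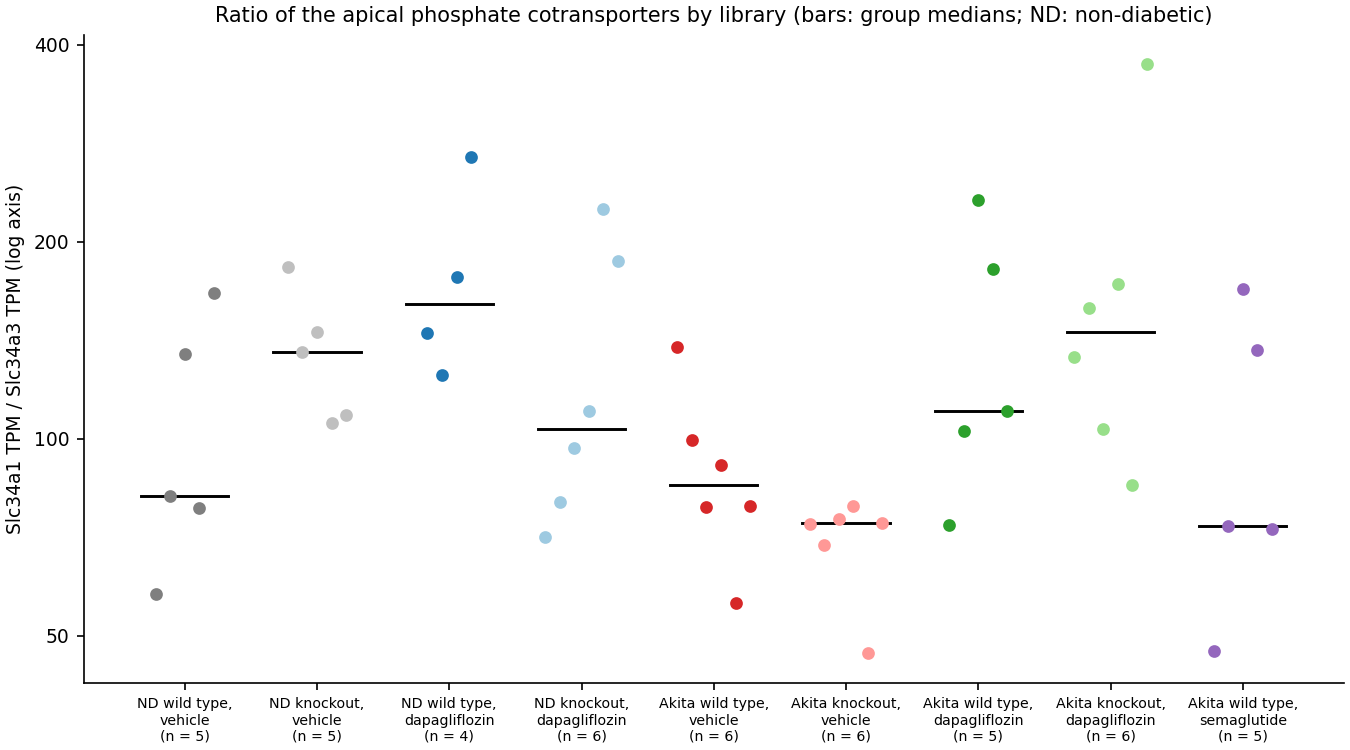
Ratio of Slc34a1 to Slc34a3 TPM in each of 48 libraries (log axis), by group, with group medians as bars. The 6 Akita knockout vehicle libraries (47.0 to 78.9) lie below all 5 non-diabetic knockout vehicle libraries (106 to 183) and all 6 Akita knockout dapagliflozin libraries (84.9 to 374).

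Most members varied with the share of nuclear protein-coding RNA in a library. After group means were removed, this share correlated with log2 Slc34a1 at r = 0.91 (rho = 0.93), Kl at 0.89, Pth1r at 0.86, Xpr1 at 0.86 and Vdr at 0.84 over 48 libraries (each permutation adjusted p = 2e-05 over 10 genes, the smallest that could be given). The relation was weaker for Slc20a2 (r = 0.57), Slc34a3 (0.51), Cyp24a1 (0.48) and Slc20a1 (0.35), with adjusted p-values of 0.000133, 0.000729, 0.000925 and 0.0209. It was 0.094 for Cyp27b1 (permutation adjusted p = 0.599). By rank, rho lay between 0.84 and 0.93 for the first 5 genes, and was 0.54, 0.51, 0.50, 0.30 and 0.13 for the rest in the order given. Without the 2 libraries farthest from the median share, r for Slc34a1 was 0.91. The TPM of each member is itself part of that share. Every library has the same TPM sum, so a steady nuclear gene rises with the share by construction. The r of all genes was not computed, so these values and their p-values show no trait of the members. After scaling by the median of ratios r lay between -0.16 and 0.29 for all 10 genes. That scaling by its design takes out a rise that most genes share.

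**Figure D4:**
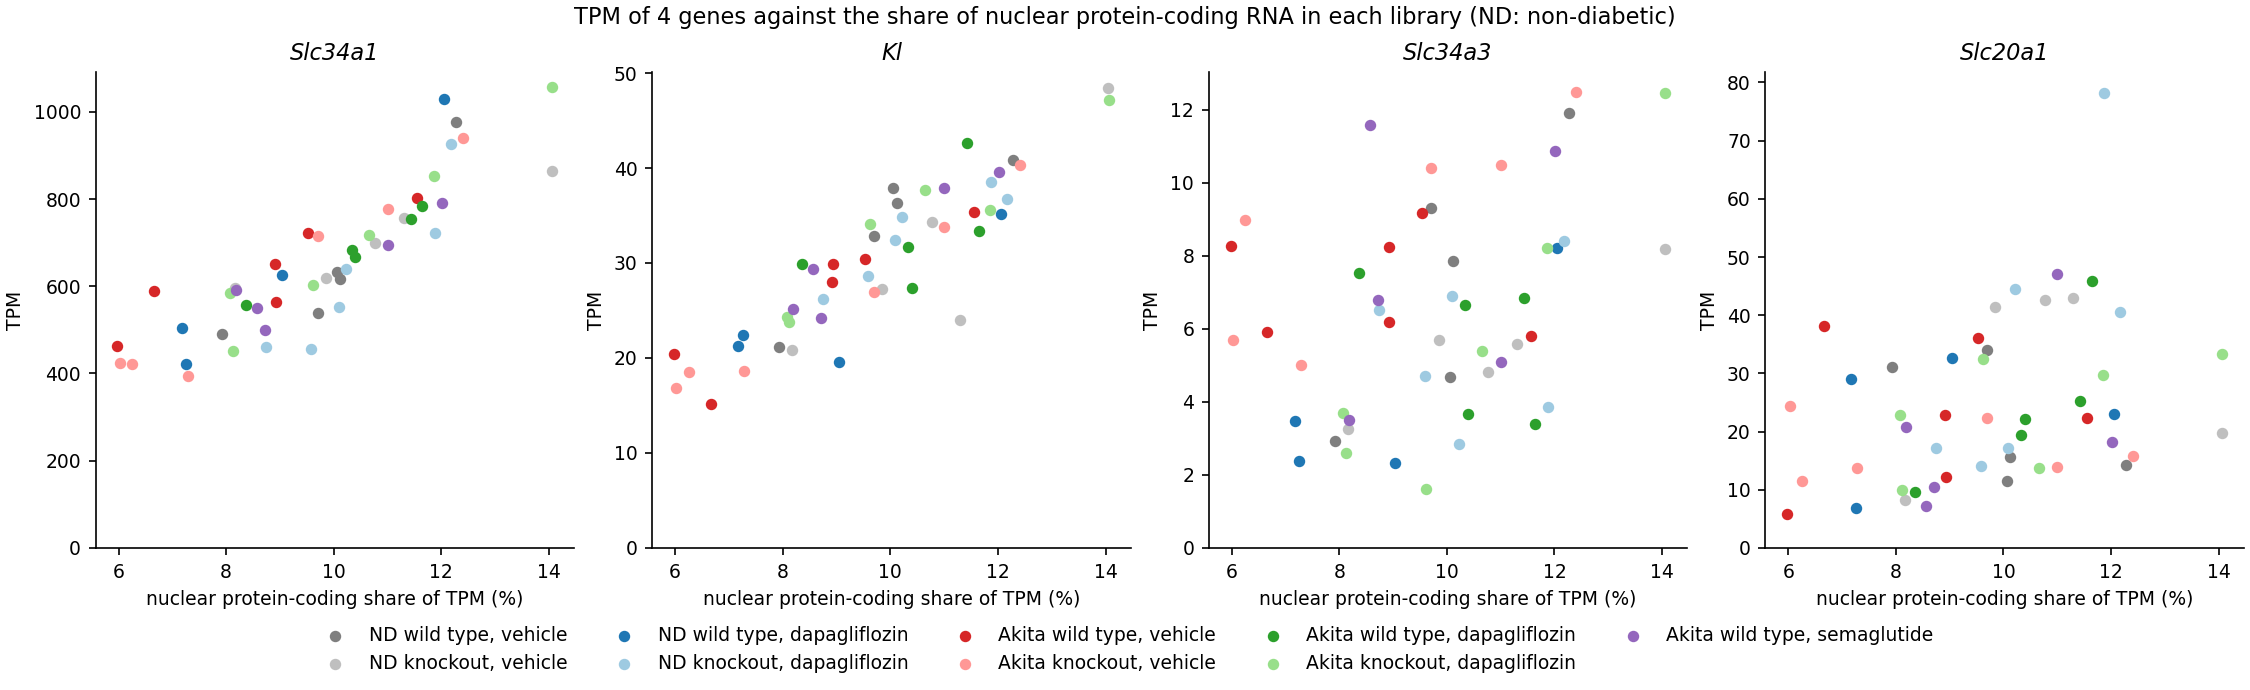
TPM of Slc34a1, Kl, Slc34a3 and Slc20a1 (linear axes from 0) against the nuclear protein-coding share of TPM in percent, 1 point per library, coloured by group. Slc34a1 and Kl increase with the share (r = 0.91 and 0.89 after removing group means), and Slc34a3 and Slc20a1 scatter more widely (0.51 and 0.35).

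Slc34a1 was then compared across libraries with 5 genes that act with it, again with group means removed. On deposited TPM all 5 relations were positive over 48 libraries. Pdzk1 and Slc9a3r1 (NHERF1), scaffolds that hold the cotransporter at the membrane, gave r = 0.87 (rho = 0.83) and 0.81 (rho = 0.82). Kl gave r = 0.79 (rho = 0.82), Pth1r 0.79 (rho = 0.80) and Slc34a3 0.56 (rho = 0.50). The permutation p adjusted over the 5 relations was 1.25e-05 for the first 4, the smallest that could be given, and 0.00034 for Slc34a3, and for rho 1.25e-05 and 0.00123. Without the 2 libraries farthest from the median of Slc34a1, r was 0.84, 0.78, 0.76, 0.77 and 0.46 in the same order. None of the 5 held on nuclear protein-coding rescaling: r was 0.33, 0.055, -0.049, -0.0015 and 0.27, with permutation adjusted p-values of 0.223, 0.931, 0.931, 0.994 and 0.238. The matching values of rho lay between -0.013 and 0.30.

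The genes whose pattern was most like that of Slc34a1 over the 48 libraries, among 10038 named protein-coding genes, were Smarcc2 (r = 0.90), Actn4 (0.89) and Sf3b2 (0.88). After scaling by the median of ratios these were at 0.54, 0.51 and 0.50, and Slc22a8, an organic anion transporter of the basolateral membrane, led at 0.66. For Slc34a3 they were Acss1 (r = 0.74), Rnase4 (0.71) and Tln2 (0.68), the same 3 that led after scaling, at 0.69, 0.67 and 0.63. Vdr was the sixth closest gene to Cyp24a1 (r = 0.61) and the fourth after scaling (0.53), a pair examined after the values were seen. Cyp24a1 is a known target of Vdr. These values come from libraries that share depth and composition and are given without a test.

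**Figure D5:**
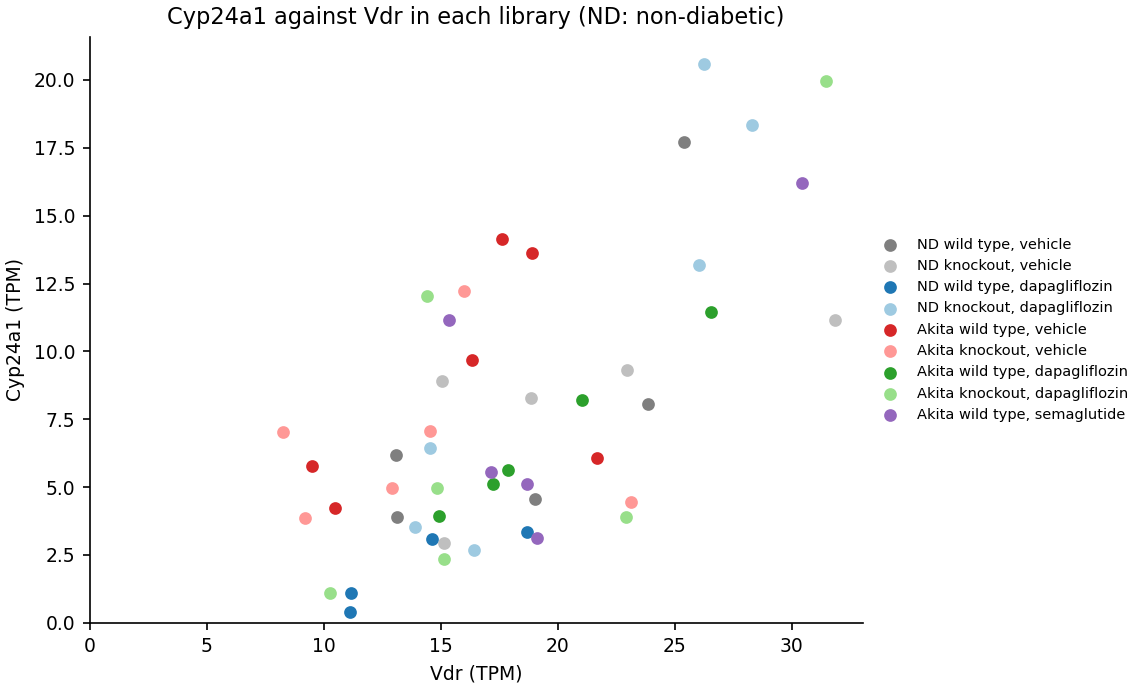
Cyp24a1 against Vdr, both in TPM on linear axes from 0, 1 point per library, coloured by group. Libraries with high Vdr tend to have high Cyp24a1 (r = 0.61 on log2 values, n = 48). The 4 non-diabetic wild-type dapagliflozin libraries lie low in Cyp24a1 (0.411 to 3.34 TPM). Their Vdr ran from 11.1 to 18.7 TPM, beside a median of 16.8 over all 48 libraries.

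The wider pathway was read from 8 lists with 83 genes, of which 69 were tested. None passed in any of the 17 comparisons, and the smallest adjusted p was 0.0654 with diabetes and 0.080 with dapagliflozin in Akita mice. With diabetes 7 of the 69 were above 0, with a median of -0.21 beside -0.20 for all genes, and with dapagliflozin in Akita mice 60 were, with a median of 0.22 beside 0.17. The share of all genes above 0 was not counted, here or below, so such counts show no trait of the lists. The list medians for these 2 comparisons were between -0.09 and 0.14 and between -0.10 and 0.02 on the rescaled values.

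The scaffold genes Pdzk1 (73.3 to 197 TPM) and Slc9a3r1 (26.8 to 84.9 TPM) were at -0.12 and -0.28 with diabetes and at 0.28 and 0.25 with dapagliflozin in Akita mice, on the log2 scale, and their smallest adjusted p was 0.306. Rescaled, they were at 0.17 and 0.0020 with diabetes and at -0.0077 and -0.027 with dapagliflozin. Another scaffold, Pdzd3, was at -0.24 and 0.24, and at 0.027 and -0.022 after rescaling. In parathyroid hormone signalling 16 of 17 genes were tested. Gnas, the stimulatory G protein under Pth1r, was at -0.28 and 0.32, and Prkar2a, a regulatory subunit of protein kinase A, at -0.52 and 0.50, with adjusted p-values of 0.215 or above. Rescaled, Gnas was at 0.0018 and 0.045 and Prkar2a at -0.28 and 0.26. Prkca, a protein kinase C, was at -0.52 with diabetes (adjusted p = 0.197) and at -0.36 after rescaling.

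In FGF23 signalling 12 of 13 genes were tested. Fgfr4, a receptor that can pair with Klotho, was at 0.59 with dapagliflozin in Akita mice (SE 0.18, adjusted p = 0.080, limma) and at 0.35 after rescaling (adjusted p = 0.242). Fgfr1, the receptor best known for FGF23 and Klotho, was at 0.27 (SE 0.19, adjusted p = 0.462). The downstream kinase Mapk3 was at 0.16 (adjusted p = 0.695). Rescaled, Fgfr1 was at 0.030 and Mapk3 at -0.046. Fgf23 itself, a hormone of bone, was listed at 0 in every library.

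Vitamin D reaches the cell through the endocytic receptors megalin (Lrp2) and cubilin (Cubn). Lrp2, at 56.8 to 195 TPM, was at -0.39 with diabetes (SE 0.17, adjusted p = 0.215) and at 0.41 with dapagliflozin in Akita mice (SE 0.17, adjusted p = 0.197). Cubn was at -0.29 and 0.35, and Fdx1, the electron donor of mitochondrial P450 enzymes, at -0.21 and 0.36. Rescaled, Lrp2 was at -0.10 and 0.12, Cubn at -0.012 and 0.073 and Fdx1 at 0.039 and 0.12. Among partners of Vdr, 9 of 10 genes were tested, and with diabetes none was above 0. Ncoa2, a coactivator, was at -0.76 (SE 0.21, adjusted p = 0.0654) and the corepressor Ncor1 at -0.53 (SE 0.16, adjusted p = 0.0954). Rxra, which pairs with Vdr on DNA, was at -0.40 (adjusted p = 0.221). After rescaling these 3 were at -0.50, -0.25 and -0.14.

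Calcium genes known from the distal nephron were read for comparison. Trpv5 and Trpv6 were below 1 TPM in every library and were not tested, Atp2b1, a calcium pump, was at -0.41 with diabetes (adjusted p = 0.150), and Slc8a1 and Casr were at -0.16 and -0.39 (adjusted p = 0.755 and 0.275). Rescaled, Atp2b1, Slc8a1 and Casr were at -0.14, 0.069 and -0.27. Of genes for phosphate inside the cell, Kidins220, which binds Xpr1, was at -0.45 with diabetes (adjusted p = 0.182) and at -0.17 after rescaling. Slc37a4, which carries glucose 6-phosphate, and Slc25a3, the mitochondrial phosphate carrier, were at 0.44 and 0.30 with dapagliflozin in Akita mice (adjusted p = 0.119 and 0.200). The rescaled values of these genes were 0.17 and 0.020. Of the local regulators, Alpl, the phosphatase, was at 0.33, Enpp1, which makes pyrophosphate, at 0.23 and Fam20c, a secretory kinase, at 0.21, with adjusted p-values of 0.390 or above. Their rescaled values were 0.050, 0.033 and -0.048.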

How the data were processed

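Laser-captured SGLT2-positive tubules gave 48 libraries of 54 labelled samples. The other 6 samples have no column and were not analysed here; the deposited table is named as having outliers removed, and the rule is not given in the sources used here. The authors deposited TPM per gene, made with Salmon on GRCm38, with MultiQC 1.8 also listed, per the submitters' processing notes. Per the labels' protocols, 0.5 ng of RNA entered a stranded pico-input kit.

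From these values log2(TPM + 1) was fitted in 1 model of 9 groups with limma 3.58.1 (R 4.3.3, trend and robust), and 17 comparisons were adjusted over 12742 genes by Benjamini-Hochberg. The threshold for a call was 0.05 on the adjusted p. Alternatives were a pseudocount of 0.1, no filter or a filter of 24 libraries, median-of-ratios scaling, rescaling to nuclear protein-coding genes, the capture number in the labels as a covariate, only the groups compared, and leaving out libraries. Correlations used 100000 permutations within groups, and ratios exact permutation tests (scipy 1.17.1). The fit was tested on simulated data.

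Text names all members, any pathway gene that was called, otherwise the 3 of each list with the smallest unadjusted p with diabetes or with dapagliflozin in Akita mice, and Pdzk1, Slc9a3r1, Fgfr1, Rxra, Lrp2 and Cubn. A gene that this rule names is not reported here. Likeness was read for Slc34a1 and Slc34a3 as the 3 genes of highest r. The members and lists were chosen with earlier results of these data known. The ratio, the genotype test of dapagliflozin without diabetes and the relation to nuclear share were chosen after seeing the data. Sequences come from RefSeq tables (GRCm38.p6), which held 8 of the 10 genes.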

Additional observations from a re-analysis of the deposited data

Results flagged for a closer look

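In 90 sets of 1 gene in 1 group, 4 had a library far from the others by Dixon's criterion; chance flags about 1 set in 20. Slc20a2 read 9.70 TPM in semaglutide sample 6, where the other 4 libraries read 3.02 to 4.59. Slc20a2 also read 6.69 TPM in non-diabetic knockout vehicle sample 5, beside 2.32 to 3.48 in the others. In semaglutide sample 5, Cyp27b1 read 1.17 TPM beside 0.132 to 0.375, and Vdr 30.4 TPM beside 15.4 to 19.1.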

How the results depend on the processing

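No paired analysis was possible because the labels give nothing that pairs libraries between groups. With nuclear protein-coding rescaling 1 member, Slc34a3, was called with dapagliflozin in Akita mice, and with that exception no member was called in any comparison under any setting run. Among uncalled log2 changes, 97 values changed sign under other settings, beside 1264 that kept it. Without 1 library 166 changed sign, beside 2844 that kept it. On the same rescaling the correlations of Slc34a1 were 0.27 with Slc34a3, -0.0015 with Pth1r, -0.049 with Kl, 0.33 with Pdzk1 and 0.055 with Slc9a3r1. Without the 4 libraries with fewest genes, chosen after seeing the data, the log2 ratio differences in knockouts were -0.84 with diabetes and 1.03 with dapagliflozin in Akita mice, each with an exact permutation adjusted p of 0.0794. The unadjusted p of both was the smallest that the remaining libraries allow and the groups still did not overlap, so the lost call says nothing about stability. Leaving out 1 library at a time, the knockout difference of the ratio in Akita vehicle mice ran from -0.47 to -0.21, and passed without wild-type sample 5 (exact permutation adjusted p = 0.0289). The cause was not tested. Over all genes, calls went from 71 with diabetes to between 4 and 91 under the other settings and between 11 and 313 without 1 library. With dapagliflozin in Akita mice they went from 104 to between 0 and 150, and between 9 and 378 without 1 library. Both lowest counts from a setting came without the libraries with fewest genes. All members passed the filter, so the setting planned for members under it gave no value. TPM keeps no depth, so counting error is unknown.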

Other observations

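Slc20a1 varied across libraries most like Slc25a25 (r = 0.81, n = 48), Plekhf1 (0.79) and Plk3 (0.78), and the same genes led after median-of-ratios scaling, at 0.80, 0.76 and 0.78. Slc25a25, a mitochondrial carrier, ran from 2.69 to 98.8 TPM. The group means were not removed, the genes were named after their values were seen, and the libraries share depth and composition.

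Kl was closest to Lamp1, a lysosomal membrane protein, after the same scaling (r = 0.80), with Lamp2 second at 0.79. Both were also named after their values were seen, and are given with no test.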
